A study of Homo sapiens with 3 samples.

Results

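The HNRNP and SRSF genes encode the heterogeneous nuclear ribonucleoproteins (hnRNPs) and the serine- and arginine-rich (SR) splicing factors. They were taken by name from the count table: every gene starting with HNRNP and every gene named SRSF with a number, leaving out names that end in P and digits (pseudogenes) and antisense names. The rule gave 38 of 26485 genes, 26 HNRNP and 12 SRSF, and 5 names were left out. The data are RNA counts from HEC1B, an established human endometrial cancer cell line, in 3 libraries prepared from 10 ng of total RNA at 48 h. The siNC control, listed as wild type, is 1 library. PRMT6 knockdown is 2 libraries, each made with a different siRNA, called siPRMT6-1 and siPRMT6-2, so neither siRNA has a replicate. The sample descriptions call these siRNAs si2 and si3, so a per-siRNA value rests on title and description belonging together. Separate cultures are not stated in the labels. A p-value then rests on the spread between the 2 knockdown libraries, which differ in siRNA and may also differ technically.

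hnRNPs coat nascent transcripts and often silence splice sites or exons, while SR proteins bind exonic enhancers through RNA recognition motifs and recruit the spliceosome through arginine-serine tails. Many hnRNPs carry arginine-glycine repeats, which are classical substrates of protein arginine methyltransferases, mainly of PRMT1. PRMT6 is a nuclear member of that enzyme family and places asymmetric dimethylarginine on histone H3 and on other proteins. RNA counts concern the transcripts of these factors, and reading them as transcript levels is uncertain here because of the strand, as described below. Methylation of the proteins and the splicing of their targets were not measured here.

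Library depth was 410916 counts for siNC, 381628 for siPRMT6-1 and 362080 for siPRMT6-2. PRMT6 itself had 25, 4 and 7 counts in the same order. PRMT6 stood at 0.167 times siNC for siPRMT6-1 (0.0421 to 0.482, the 95% exact binomial interval) and at 0.327 times for siPRMT6-2 (0.120 to 0.778). A list of 12 interferon-stimulated genes had 28, 30 and 1413 counts in sum, so the siPRMT6-2 library stands apart in that list. Its leading genes there were IFI6 (0, 0 and 330 counts), ISG15 (1, 3 and 308) and OAS3 (4, 7 and 286). Epithelial markers had 1632, 895 and 1109 counts, with KRT8 at 1329, 681 and 770, KRT18 at 129, 85 and 95, and PAX8 at 158, 117 and 227. Against siNC, PAX8 was thus low with siPRMT6-1 and high with siPRMT6-2, and KRT8 low with both. KRT19, CDH1 and PGR were at 0 in every library. KRT8 shares exon bases with KRT18 and PAX8 with PAX8-AS1 on the opposite strand. The leukocyte markers PTPRC, CD3E and CD14 were at 0, CD68 had 17, 19 and 56 counts, and LYZ had 0, 0 and 1. COL1A1 held most counts of the fibroblast list (524, 360 and 373 in sum), PDGFRA had 9, 6 and 3, and COL1A2, COL3A1, DCN and LUM were at 0. The endothelial list had 26, 27 and 15 counts, from PECAM1 (19, 16 and 5), CLDN5 (7, 9 and 9) and VWF (0, 2 and 1), with CDH5 and KDR at 0.

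In these files the strand behind a count is not certain. The library kit marks the strand of the RNA, and reads were counted with strand setting 1. Of all genes in the table, 13.5% overlap an exon of another gene on the other strand, and those genes held 51.3% of the siNC counts. Among the splicing factors 4 genes are of this kind, and in each pair the gene on the other strand had more counts. Whether the counts of a gene are reads of its own transcript or of the opposite strand cannot be told apart for the whole table, so every value here is the deposited count and its reading as a transcript level is uncertain.

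Of the 38 genes, 33 had counts and 5 had none in any library. The 5 at 0 were HNRNPA1L2 and the hnRNP C-like genes HNRNPCL1, HNRNPCL2, HNRNPCL3 and HNRNPCL4, copies closely related to HNRNPA1 and HNRNPC. At this depth 3 counts, the floor used here for a gene at 0, equal 7.78 CPM (counts scaled to a common library size with TMM) in siNC, 8.09 in siPRMT6-1 and 9.09 in siPRMT6-2. The header of the table holds no option for counting reads that map to several places, so copies that share sequence may be undercounted. At least 100 counts over the 3 libraries were reached by 15 genes, 11 HNRNP and 4 SRSF. The other 18 with counts ranged from 17 counts in sum (SRSF12) to 96 (SRSF6). All 38 together made up 1497, 1449 and 1175 counts in siNC, siPRMT6-1 and siPRMT6-2. Scaled for depth, the sum was 1.01 times siNC for siPRMT6-1 (0.937 to 1.08) and 0.918 times for siPRMT6-2 (0.849 to 0.991).

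**Figure D1:**
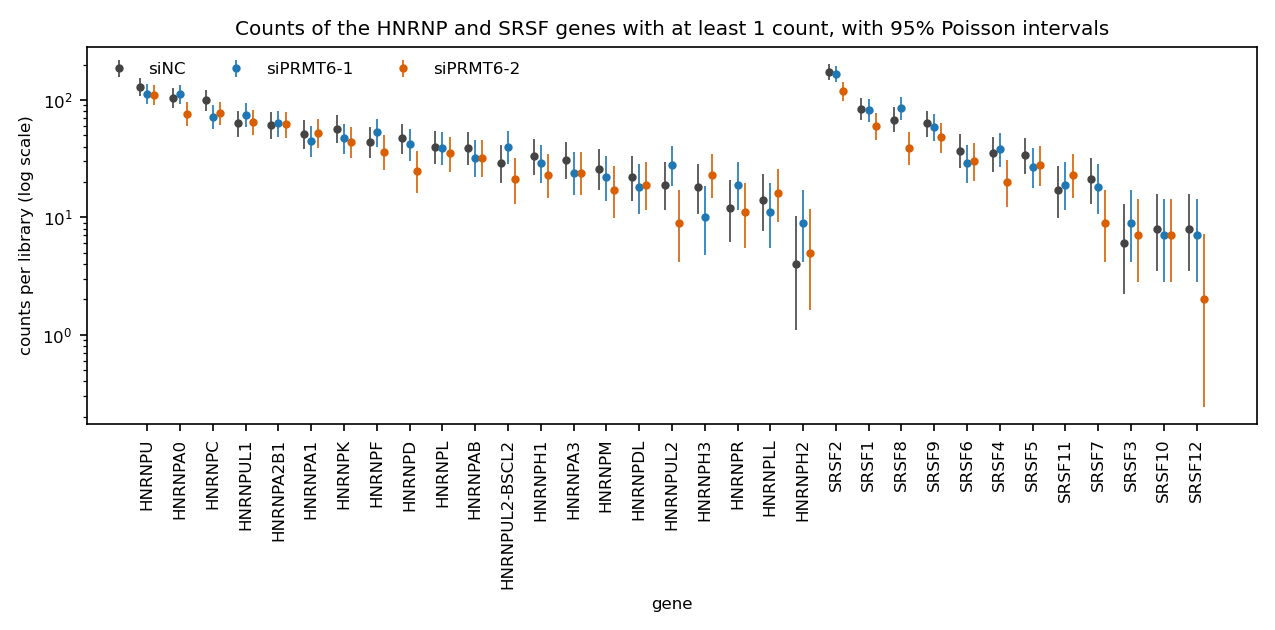
Counts (y axis, log scale) of the 33 HNRNP and SRSF genes with counts (x axis), as points for siNC, siPRMT6-1 and siPRMT6-2 with 95% exact Poisson intervals. SRSF2 is the highest with 174, 166 and 119 counts, and the intervals of the 3 libraries share a common range in every gene except HNRNPUL2, SRSF2 and SRSF8. The counts are not scaled for depth, which is lowest in siPRMT6-2. Scaled for depth, the SRSF2 ratio of siPRMT6-2 to siNC has an interval that covers 1 (0.628 to 1.02).

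Counts per length spanned a wide range. Per kilobase of exon, SRSF2 had 152 CPM in siNC and SRSF9 had 140, ahead of HNRNPA0 with 90.9, HNRNPC with 78.9 and HNRNPA1 with 68.7. The lowest of the 29 tested genes was HNRNPR with 3.97. The median over these 29 genes was 38.6 CPM per kilobase in siNC, and 15.8 over all 6803 genes tested. The 29 passed the filter on low counts that precedes the test (at least 10 counts in a library, 15 in sum). HNRNPH2, SRSF3, SRSF10 and SRSF12 had counts and did not pass it, so counts over the 29 leave them out.

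The summed HNRNP genes did not differ between the 3 libraries beyond counting error. They summed to 942, 903 and 783 counts in siNC, siPRMT6-1 and siPRMT6-2. Scaled for depth, the sum was 0.998 times siNC for siPRMT6-1 (0.910 to 1.09, 95% exact binomial) and 0.972 times for siPRMT6-2 (0.883 to 1.07). The intervals cover counting error only and compare single libraries. HNRNPUL2-BSCL2, a read-through gene, shares 2391 exon bases with HNRNPUL2, and a read there was added to both. Without it the ratios were 0.984 (0.895 to 1.08) and 0.976 (0.885 to 1.07).

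The summed SRSF genes differed between the libraries of the 2 siRNAs beyond counting error. They summed to 555, 546 and 392 counts in siNC, siPRMT6-1 and siPRMT6-2. The sum was 1.02 times siNC for siPRMT6-1 (0.908 to 1.15) and 0.826 times for siPRMT6-2 (0.724 to 0.941). Between the knockdown libraries, siPRMT6-2 stood at 0.806 times siPRMT6-1 (0.707 to 0.920), a comparison that does not use the control library. SRSF2 and SRSF8 carried part of this. Without SRSF8 the ratio of siPRMT6-2 to siNC was 0.847 (0.737 to 0.974), and without SRSF2 and SRSF8, left out after their values were seen, it was 0.874 (0.735 to 1.04), an interval that covers 1. Between the knockdown libraries the ratio without SRSF2 and SRSF8 was 0.891 (0.747 to 1.06), which covers 1 too. SRSF2, SRSF5 and SRSF9 have exons that overlap an opposite-strand gene in the deposited models. Without these genes the ratio of siPRMT6-2 to siNC was 0.811 (0.673 to 0.976). Without the same genes the ratio of siPRMT6-2 to siPRMT6-1 was 0.753 (0.625 to 0.905). In bulk RNA, fewer cells of a type and less RNA per cell cannot be told apart. The siPRMT6-2 library is also the one with the high interferon-stimulated counts, 59.0 times siNC in sum, and their part in the SRSF sum was not tested. The siPRMT6-2 library has no replicate of its siRNA, and the intervals cover counting error only. Between the knockdown libraries, 19.2% of single genes with at least 100 counts had an interval below 1. With siPRMT6-2 against siNC the share was 20.1%. No such share was computed for sums of genes.

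**Figure D2:**
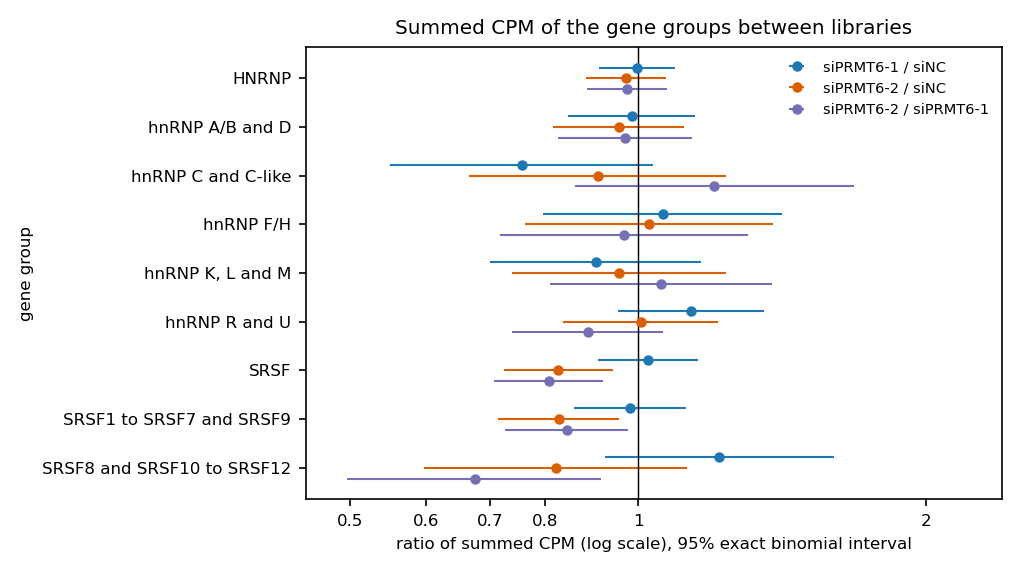
Ratios of summed CPM (x axis, log scale) for each gene group (y axis), for siPRMT6-1 over siNC, siPRMT6-2 over siNC and siPRMT6-2 over siPRMT6-1, with 95% exact binomial intervals. The HNRNP ratios lie between 0.972 and 0.998, and the SRSF sum with siPRMT6-2 lies at 0.826 times siNC and 0.806 times siPRMT6-1.

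None of the splicing factor genes passed the test of PRMT6 knockdown against siNC. The edgeR quasi-likelihood test, with Benjamini-Hochberg adjustment over all 6803 genes tested, called 0 of the 29 genes, and 0.0% of all genes. At an unadjusted p under 0.05 there were 0 of 29, where 2.73% of all genes tested (186) reached it, and DESeq2 called 0 of 29 as well and also had 0 at an unadjusted p under 0.05. The log2 fold changes of the 29 ran from −0.51 (SE 0.612) for SRSF7 to 0.45 (SE 0.581) for SRSF11. The median was −0.10 over the 29 genes, 0.00 over the 20 HNRNP and −0.15 over the 9 SRSF genes tested, against 0.04 over all genes tested and −0.06 over the 1902 with at least 100 counts. The fit takes the spread of the single control from that of the knockdown libraries, and it had 1 residual degree of freedom.

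**Figure D3:**
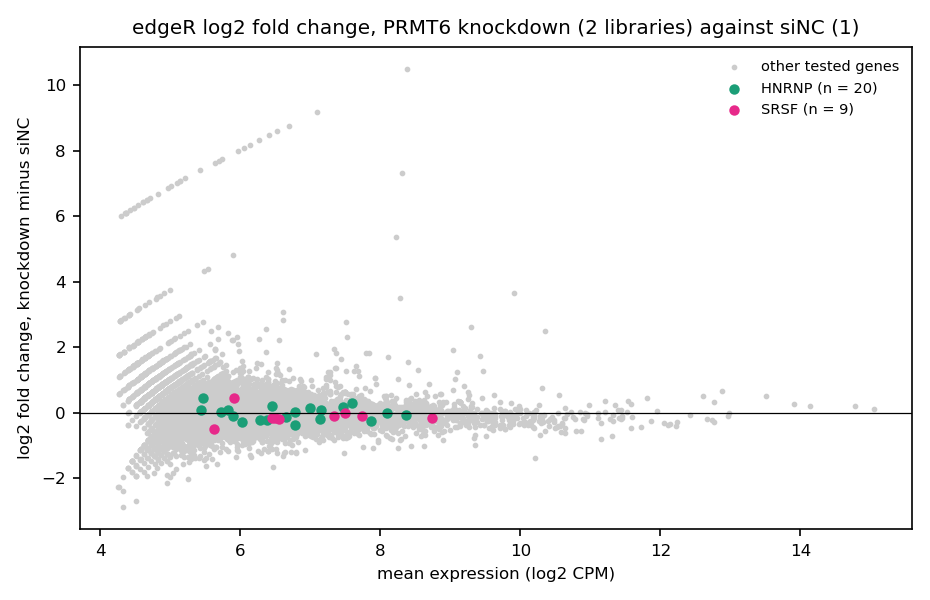
edgeR log2 fold change of PRMT6 knockdown over siNC (y axis) against mean expression in log2 CPM (x axis) for 6803 genes, with 20 HNRNP and 9 SRSF genes in colour. The coloured points lie between −0.51 and 0.45, close to the zero line.

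Single genes were read through the counting interval of their CPM ratio. With siPRMT6-1 the interval excluded 1 on the high side for 0 of the 29 genes and on the low side for 0, where the shares over all genes tested were 5.89% and 7.14%. With siPRMT6-2 the counts were again 0 and 0, beside 9.73% and 8.82%. The share was larger among deeper genes: of those with at least 100 counts, 20.1% were on the low side with siPRMT6-2, against 0 of the 15 splicing factor genes of that depth. Both knockdown libraries were lower than siNC for 12 of the 29 genes and higher for 5, beside 30.1% and 31.3% of all genes tested. Both comparisons use the same siNC library. Taken by siRNA, 8 of the 9 SRSF genes tested were below siNC with siPRMT6-2 and 5 with siPRMT6-1, beside 49.1% and 49.3% of all genes tested. For the 20 HNRNP genes these counts were 11 and 12. These shares also differ with depth. Of the 1902 genes with at least 100 counts, 1108 were below siNC with siPRMT6-2 and 1077 with siPRMT6-1. Of the same genes 36.9% were lower in both knockdown libraries, against 6 of the 15 splicing factor genes of that depth.

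**Figure D4:**
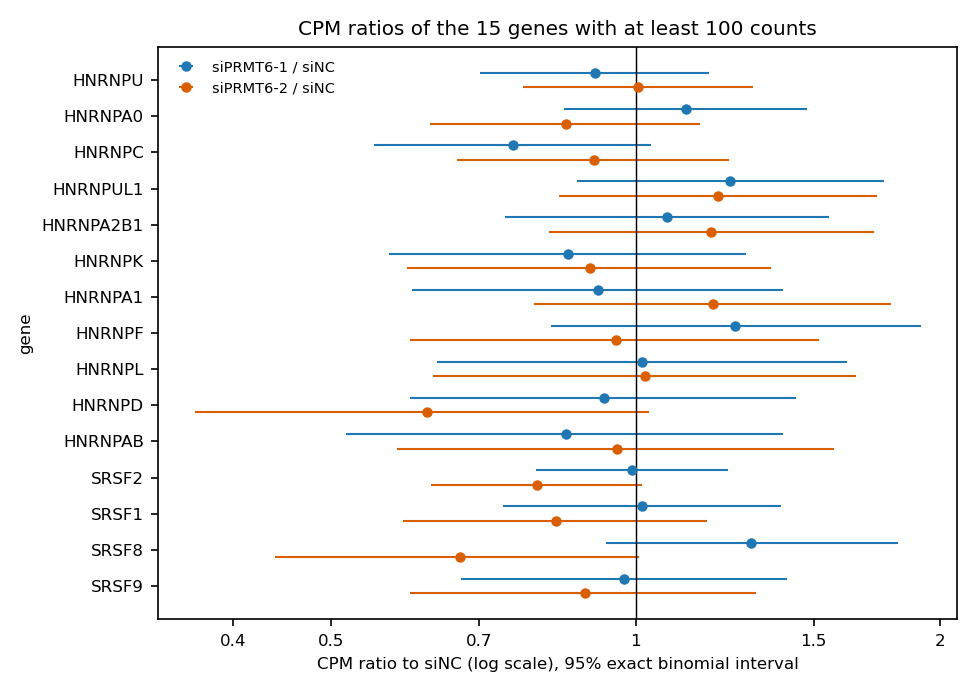
CPM ratio to siNC (x axis, log scale) with 95% exact binomial intervals for the 15 genes with at least 100 counts (y axis), for siPRMT6-1 and siPRMT6-2. Every interval covers 1, and SRSF8 has the widest gap between the siRNAs, at 1.30 and 0.670.

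The hnRNP A/B and D proteins carry paired RNA recognition motifs and a glycine-rich tail with arginine-glycine repeats. Their 8 genes, HNRNPA1L2 at 0 included, had 355, 336 and 290 counts in sum, a CPM ratio to siNC of 0.985 for siPRMT6-1 (0.846 to 1.15) and 0.955 for siPRMT6-2 (0.815 to 1.12). HNRNPA0, an AU-rich element binding protein (hg38 chromosome 5, 137751384 to 137754350, minus strand), had 104, 112 and 76 counts. It stood at 1.12 times siNC for siPRMT6-1 (0.851 to 1.48) and at 0.854 times for siPRMT6-2 (0.627 to 1.16).

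HNRNPA1, the best known exon silencing factor of the group (chromosome 12, 54280704 to 54285246), had 51, 45 and 52 counts, and its ratio to siNC was 0.918 for siPRMT6-1 (0.601 to 1.40) and 1.19 for siPRMT6-2 (0.794 to 1.79). HNRNPA2B1, which also carries RNAs in transport granules, had 61, 63 and 62 counts, at 1.08 (0.744 to 1.55) and 1.19 (0.821 to 1.72) times siNC. Both intervals cover 1 in either gene. HNRNPA1 and HNRNPA3 have processed pseudogenes with near-identical sequence, so their counts are uncertain, and the 4 HNRNP pseudogenes left out by name held 0 to 2 counts in any library.

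HNRNPD, also called AUF1, directs decay of messages with AU-rich elements. It had 47, 42 and 25 counts, a CPM ratio to siNC of 0.930 for siPRMT6-1 (0.599 to 1.44) and 0.622 for siPRMT6-2 (0.367 to 1.03), the lowest ratio to siNC with siPRMT6-2 among the 15 genes with at least 100 counts. HNRNPAB had 39, 32 and 32 counts, with ratios of 0.854 (0.518 to 1.40) and 0.959 (0.582 to 1.57). HNRNPA3 and HNRNPDL, with under 100 counts each, had 31, 24 and 24 and 22, 18 and 19 counts. In each of these genes the intervals of both ratios cover 1.

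HNRNPC binds uridine tracts, keeps cryptic Alu exons out of messages and forms the core of hnRNP particles. It lies on chromosome 14 (21209136 to 21269479, minus strand) and had 99, 72 and 77 counts. It stood at 0.757 times siNC for siPRMT6-1 (0.551 to 1.04) and at 0.909 times for siPRMT6-2 (0.666 to 1.24). Its log2 fold change was −0.26 (SE 0.429; edgeR adjusted p = 1.00), and both knockdown libraries were lower than siNC.

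The hnRNP F/H proteins bind runs of guanines beside regulated exons. Their 4 genes had 99, 101 and 87 counts in sum, a CPM ratio to siNC of 1.06 for siPRMT6-1 (0.797 to 1.42) and 1.03 for siPRMT6-2 (0.761 to 1.38). HNRNPF had 44, 53 and 36 counts, with ratios of 1.25 (0.825 to 1.91) and 0.956 (0.598 to 1.52), and HNRNPH1 had 33, 29 and 23. HNRNPH3 had 18, 10 and 23 counts, and here the knockdown libraries lay on opposite sides of siNC. It stood at 0.578 times siNC for siPRMT6-1 (0.238 to 1.32) and at 1.49 times for siPRMT6-2 (0.771 to 2.94). Between the siRNAs its ratio was 2.58 (1.18 to 6.08), and this was the only one of the 29 genes with an interval above 1 in that comparison, where 11.3% of all genes tested had one. HNRNPH2 had 4, 9 and 5 counts and shares 2205 exon bases with the read-through gene RPL36A-HNRNPH2.

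HNRNPK binds cytidine-rich RNA and DNA through KH domains, HNRNPL binds CA repeats, and HNRNPM binds GU-rich sites. Together with HNRNPLL they had 137, 119 and 112 counts, a CPM ratio to siNC of 0.904 for siPRMT6-1 (0.701 to 1.16) and 0.956 for siPRMT6-2 (0.738 to 1.24). HNRNPK had 57, 47 and 44 counts, or 0.858 (0.571 to 1.29) and 0.902 (0.595 to 1.36) times siNC. HNRNPL had 40, 39 and 35 counts and ratios of 1.02 (0.636 to 1.62) and 1.02 (0.631 to 1.65). HNRNPM had 26, 22 and 17 counts and HNRNPLL 14, 11 and 16.

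HNRNPU, also called scaffold attachment factor A, binds RNA and chromatin, and it had the most counts of the HNRNP genes. It lies on chromosome 1 (244850300 to 244864525, minus strand) and had 129, 113 and 111 counts, a CPM ratio to siNC of 0.912 for siPRMT6-1 (0.702 to 1.18) and 1.01 for siPRMT6-2 (0.773 to 1.31). HNRNPUL1, its relative, had 63, 75 and 65 counts, or 1.24 (0.874 to 1.76) and 1.21 (0.840 to 1.73) times siNC. HNRNPR had 12, 19 and 11 counts. With HNRNPUL2 and HNRNPUL2-BSCL2 these genes summed to 252, 275 and 217 counts, a CPM ratio to siNC of 1.14 for siPRMT6-1 (0.954 to 1.35) and 1.01 for siPRMT6-2 (0.836 to 1.21).

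HNRNPUL2 was singled out because of its values. Its counts were 19, 28 and 9, so its knockdown libraries lay on opposite sides of siNC. It stood at 1.53 times siNC for siPRMT6-1 (0.827 to 2.91) and at 0.554 times for siPRMT6-2 (0.221 to 1.28). The ratio of siPRMT6-2 to siPRMT6-1 was 0.361 (0.150 to 0.787). The read-through gene HNRNPUL2-BSCL2 had 29, 40 and 21 counts and a ratio of 0.590 (0.330 to 1.02) between the siRNAs, partly from the same reads.

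Among the SR proteins, SRSF1 (ASF/SF2) and SRSF2 (SC35) are the founding members of the family. SRSF2, on chromosome 17 (76734115 to 76737411, minus strand), had 174, 166 and 119 counts. It stood at 0.993 times siNC for siPRMT6-1 (0.798 to 1.24) and at 0.799 times for siPRMT6-2 (0.628 to 1.02; with library totals in place of TMM, 0.776 and 0.610 to 0.986). Its log2 fold change was −0.16 (SE 0.409; edgeR adjusted p = 1.00). SRSF1 had 84, 82 and 60 counts, with ratios of 1.02 (0.740 to 1.39) and 0.835 (0.589 to 1.18). In both genes siPRMT6-1 lay at the level of siNC and siPRMT6-2 below it, within counting error.

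SRSF9, a short family member that acts on exons much as SRSF1 does, had 63, 59 and 48 counts, with ratios of 0.975 (0.672 to 1.41) and 0.891 (0.599 to 1.32). SRSF4 had 35, 38 and 20 counts, SRSF5 34, 27 and 28, SRSF6 37, 29 and 30, and SRSF7, which carries a zinc knuckle beside its RNA recognition motif, 21, 18 and 9. SRSF3, a small SR protein, had 6, 9 and 7. SRSF1 to SRSF7 and SRSF9 together had 454, 428 and 321 counts, a CPM ratio to siNC of 0.981 for siPRMT6-1 (0.858 to 1.12) and 0.827 for siPRMT6-2 (0.714 to 0.956). SRSF7, also singled out because of its values, had the lowest ratio with siPRMT6-2 of the tested genes, 0.501 (0.202 to 1.14).

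SRSF8, a close relative of SRSF2 on chromosome 11 (95066877 to 95071224, plus strand), had 68, 85 and 39 counts. The siPRMT6-1 library was the highest and the siPRMT6-2 library the lowest. It stood at 1.30 times siNC for siPRMT6-1 (0.935 to 1.82) and at 0.670 times for siPRMT6-2 (0.440 to 1.01; with library totals, 0.651 and 0.427 to 0.979). The ratio of siPRMT6-2 to siPRMT6-1 was 0.515 (0.343 to 0.761). SRSF8 and HNRNPUL2 were the 2 of 29 genes with an interval below 1 in this comparison, where 9.61% of all genes tested had one. Of genes with at least 100 counts 19.2% had one, against 1 of the 15 splicing factor genes of that depth. SRSF11 had 17, 19 and 23 counts, the repressor SRSF10 had 8, 7 and 7, and SRSF12 had 8, 7 and 2.

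In the deposited gene models the exons of 4 genes overlap those of an opposite-strand gene, and in all 4 pairs the other gene had more counts in every library. SRSF2 shares 293 bases with MFSD11 (chromosome 17, 76736565 to 76779254, plus strand), which had 1047, 858 and 791 counts, 6.02 times SRSF2 in siNC. HNRNPH3 shares 115 bases with RUFY2, which had 921, 614 and 515 counts, 51.2 times HNRNPH3 in siNC. SRSF9 shares 495 bases with GATC, a subunit of the mitochondrial glutamyl-tRNA amidotransferase, which had 629, 557 and 310 counts, 9.98 times SRSF9.

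SRSF5 shares 269 bases with LOC100289511, which had 469, 424 and 379 counts, 13.8 times SRSF5 in siNC. SRSF5 itself stood at 0.826 (0.480 to 1.41) and 0.963 (0.562 to 1.64) times siNC. Together these 4 opposite-strand genes had 3066, 2453 and 1995 counts, against 289, 262 and 218 for the 4 splicing factors. The counts of the opposite-strand genes were lower in both knockdown libraries in all 4 pairs, which holds for 36.9% of all genes with at least 100 counts.

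By counting interval, RUFY2 was below siNC with both siRNAs, at 0.694 (0.625 to 0.769) and 0.654 (0.586 to 0.729), and so was MFSD11, at 0.853 (0.778 to 0.934) and 0.883 (0.804 to 0.970). GATC was at 0.922 (0.821 to 1.03) and 0.576 (0.501 to 0.661). LOC100289511 was at 0.941 (0.823 to 1.08) and 0.945 (0.823 to 1.08). None passed the edgeR quasi-likelihood test (adjusted p = 1.00 for each). With siPRMT6-2, HNRNPH3 stood at 1.49 times siNC and its opposite-strand gene RUFY2 at 0.654 times. How many of the counts of these genes come from the shared bases was not tested.

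**Figure D5:**
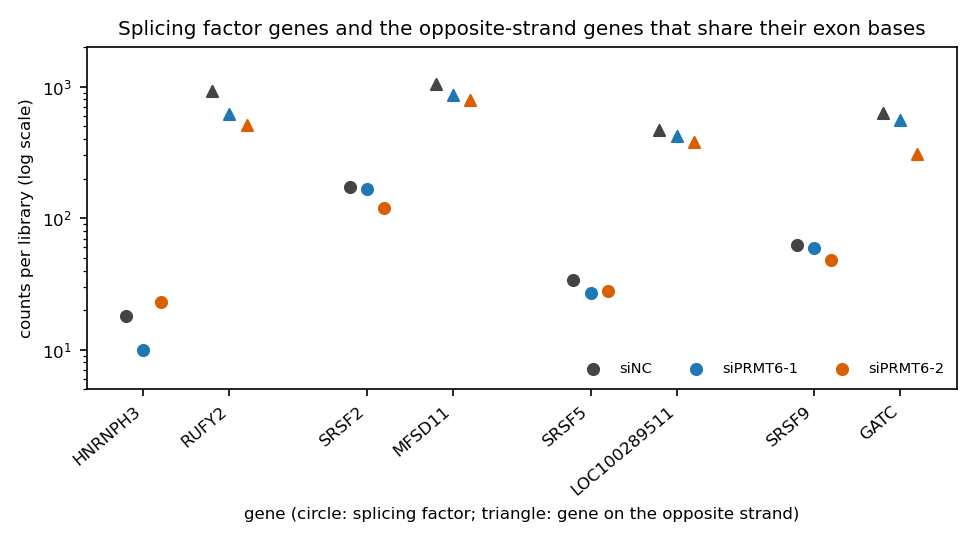
Counts per library (y axis, log scale) of SRSF2, SRSF5, SRSF9 and HNRNPH3 (circles) and of the opposite-strand genes that share their exon bases (triangles), coloured by library. The triangles lie between 310 and 1047 counts and the circles between 10 and 174.

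In GENCODE release 29, 2 further genes share exon bases with a coding gene on the opposite strand. HNRNPUL1 shares 174 bases with TGFB1, which had 106, 107 and 68 counts, and HNRNPAB shares 216 bases with PHYKPL, which had 30, 27 and 18. In the same release SRSF2 shares 1052 bases with MFSD11, more than in the deposited models. SRSF1 (403 bases), HNRNPM (284) and HNRNPK (44) overlap opposite-strand entries there that are not listed as coding. HNRNPU-AS1, left out by the rule and named because of its values, held 624, 553 and 386 counts, more than any of the 38 genes. Despite its name the deposited models place it on the same strand as HNRNPU, 3358 bases away, and it shares 2197 exon bases with COX20 on the other strand. Its ratio to siNC was 0.922 (0.821 to 1.04) with siPRMT6-1 and 0.723 (0.635 to 0.822) with siPRMT6-2.

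The promoters were searched for short motifs. The genes were chosen by name and not by promoter sequence. The motifs, however, were set with the gene set known, so their shares are descriptive and no independent test. RefSeq windows (GRCh38.p14, 250 bases before to 50 after a transcript start) matched 35 of the 38 genes, and HNRNPA1, HNRNPCL3 and SRSF2 had no entry. The palindrome TCTCGCGAGA, searched on both strands and known from promoters of housekeeping genes without a TATA box, was in the windows of 3 of 35 genes (8.57%), against 0.505% of all 27305 genes with a window. These are shown 5′ to 3′ on the strand of the gene, with the palindrome in capitals, at chr9:83980655-83980710 (HNRNPK, minus strand), chr10:68331971-68332000 (HNRNPH3, plus strand) and chr1:23980360-23980389 (SRSF10, minus strand).
HNRNPK: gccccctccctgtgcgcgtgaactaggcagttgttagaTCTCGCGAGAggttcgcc
HNRNPH3: gactttcccgTCTCGCGAGAgtggggccgg
SRSF10: gggagtgaagTCTCGCGAGAagagtcggtt

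The palindrome lies 47, 73 and 42 bases before the RefSeq start in HNRNPK, HNRNPH3 and SRSF10. In HNRNPH3 and SRSF10 it is inside an exon annotated in the deposited gene models or GENCODE release 29. The gene and strand of that exon were not checked. The deposited SRSF10 model begins at 23980463 on the minus strand, so the palindrome (23980370 to 23980379) lies within that model. The counts of these genes did not share a direction, with HNRNPK below siNC in both knockdown libraries, HNRNPH3 on either side of it and SRSF10 at 8, 7 and 7 counts. CCAAT, searched on both strands, was in 22 of 35 genes (62.9%, against 39.7% of all genes with a window). The 22 include HNRNPUL2 and its read-through gene HNRNPUL2-BSCL2, whose models start at nearly the same base, and HNRNPCL1 and HNRNPCL2, which had no counts. TATAAA, also on both strands, was in 6 (17.1%, against 14.0%). No searched motif holds another. GAAANNGAAA, the core letters of the interferon-stimulated response element, was in 2 genes, HNRNPD and HNRNPU (5.71%, against 4.38%), which stood at 0.622 and 1.01 times siNC in the siPRMT6-2 library. For each motif the share of all genes takes in genes without counts here, and the share over tested genes was not computed. A match is a description of the letters, not a site.

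The other splicing genes were followed in lists set by function. The hnRNPs known under other names (11 genes, among them PTBP1, PCBP1 and SYNCRIP) had 468, 413 and 383 counts, a CPM ratio to siNC of 0.918 for siPRMT6-1 (0.803 to 1.05) and 0.957 for siPRMT6-2 (0.834 to 1.10). PCBP1, a KH-domain relative of HNRNPK, had 176, 132 and 130 counts, with ratios of 0.780 (0.618 to 0.984) and 0.863 (0.683 to 1.09). PTBP1, which silences exons through pyrimidine tracts, had 88, 96 and 91 counts, and PCBP2 76, 69 and 59. None of the 8 tested genes of this list passed the edgeR quasi-likelihood test, and by counting interval PCBP1 alone was below siNC with siPRMT6-1 and none with siPRMT6-2, beside 7.14% and 8.82% of all genes tested.

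The kinases that phosphorylate SR proteins (SRPK1 to SRPK3 and CLK1 to CLK4) had 55, 59 and 50 counts in sum, led by SRPK2 with 13, 12 and 18, CLK3 with 12, 15 and 8 and CLK2 with 9, 5 and 12. By counting interval 1 of the 5 tested kinases was below siNC with siPRMT6-2, beside 8.82% of all genes tested. It was SRPK3, named because of its values, with 13, 8 and 2 counts. The 16 SR-related proteins had 943, 909 and 845 counts, 1.00 (0.915 to 1.10) and 1.05 (0.954 to 1.15) times siNC. SRRM2, a large scaffold of nuclear speckles, led them with 513, 448 and 439, and shares exon bases with SRRM2-AS1 on the opposite strand. SRRM1 had 98, 83 and 79 counts and ACIN1 92, 108 and 89. Of the 10 tested genes, 1 was above siNC with siPRMT6-1 by counting interval, beside 5.89% of all genes tested. It was TRA2A, named because of its values, with 6, 17 and 10 counts.

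The 57 spliceosome core genes had 1480, 1498 and 1185 counts, a CPM ratio to siNC of 1.05 for siPRMT6-1 (0.980 to 1.13) and 0.936 for siPRMT6-2 (0.866 to 1.01). Between the knockdown libraries the sum in siPRMT6-2 was 0.889 times that in siPRMT6-1 (0.823 to 0.959), an interval below 1, as for the SRSF sum. PRPF8, at the catalytic centre of the spliceosome, had 169, 189 and 107 counts, with ratios of 1.16 (0.941 to 1.44) and 0.740 (0.575 to 0.948). SNRNP200, the helicase that unwinds U4 from U6, had 95, 132 and 69 counts, with ratios of 1.45 (1.10 to 1.90) and 0.849 (0.614 to 1.17). In both genes siPRMT6-1 was the highest and siPRMT6-2 the lowest library. SNRPD3, a core Sm protein gene, had 85, 90 and 65 counts. By counting interval, siPRMT6-1 was above siNC in 3 of 37 tested genes (SNRNP200, SF3B3 and U2AF2) and below it in 1 (SNRPC), beside 5.89% and 7.14% of all genes tested. With siPRMT6-2, SNRPB was above siNC and PRPF8 below it, beside 9.73% and 8.82%. SF3B3, U2AF2, SNRPC and SNRPB are named because of their values.

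The 33 other splicing regulators had 718, 749 and 699 counts, 1.09 (0.979 to 1.20) and 1.14 (1.02 to 1.26) times siNC. RBM4 was the only tested gene of these 5 splicing lists with an interval on the same side of 1 with both siRNAs, with 42, 71 and 62 counts and ratios of 1.76 (1.18 to 2.64) and 1.73 (1.15 to 2.62). Both ratios use the same siNC library. In its list RBM4 was 1 of 24 tested genes above siNC with each siRNA, beside 5.89% and 9.73% of all genes tested. The share of all genes above siNC with both siRNAs by interval is not given here. KHSRP had 102, 88 and 102 counts and the paraspeckle protein gene SFPQ 77, 93 and 63. The protein arginine methyltransferases, which modify many hnRNPs, had 189, 175 and 162 counts in sum, with CARM1 at 79, 77 and 58, PRMT1 at 60, 47 and 53 and PRMT5 at 14, 23 and 24. PRMT5 stood at 1.71 (0.843 to 3.59) and 2.00 (0.995 to 4.19) times siNC, and its exons overlap the opposite-strand gene PRMT5-AS1. The edgeR quasi-likelihood test called 0 genes in each of these lists, PRMT6 included (log2 fold change −2.01, SE 0.684, adjusted p = 1.00).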

How the data were processed

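The deposited values are whole-number counts per gene that the authors made, with no normalization, for 26485 genes in 3 libraries. The submitters' processing notes name hg38, STAR 2.7.8a for alignment and featureCounts 2.0.10. The header of the deposited table gives featureCounts 2.0.1 with strand setting 1, each read being added to every gene it overlaps. Library totals ranged from 362080 to 410916 counts, so low genes are imprecise.

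The fit used edgeR 4.0.16 in R 4.3.3 (TMM, filterByExpr with a minimum of 10 counts in a library and 15 in sum, quasi-likelihood test, two-sided, Benjamini-Hochberg adjusted p under 0.05) over the whole table, with 1 siNC library against 2 knockdown libraries. It was also run, without the filter, on simulated counts with changes shared by both knockdown libraries. These changes were larger than the fold changes of the splicing factor genes in the fit. The outcome is not given here, and smaller changes were not simulated. Ratios are of CPM on TMM library sizes, with 95% exact binomial intervals for counting error. Opposite-strand exon overlap came from the deposited gene models and GENCODE release 29. Alternatives were DESeq2 1.42.0, an older edgeR fit, other scalings, no filter, and left-out libraries and genes.

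The genes and lists were chosen with earlier results of these data known. The rule for genes given with ratios asked for at least 100 counts in sum, an interval excluding 1 against siNC (no gene had one) or opposite-strand exon overlap. HNRNPUL2 and SRSF7 fall outside it and were chosen after their values were seen. Of each other list the 3 genes with the most counts were named, and any whose interval excluded 1 on the same side with both siRNAs.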

Additional observations from a re-analysis of the deposited data

How the results depend on the processing

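The older edgeR quasi-likelihood fit called 32 of 6803 genes, where the test used here and DESeq2 called 0 (186 and 13 genes at an unadjusted p under 0.05). It called 0 of the HNRNP and SRSF genes tested, as did every other fit run. The SRSF sum over both knockdown libraries was 0.930 times siNC (0.837 to 1.04), and leaving out either knockdown library gave 0.826 to 1.02, so the SRSF ratio depends on the siPRMT6-2 library (0.826 without siPRMT6-1). The HNRNP sum ranged from 0.972 to 0.998 when either knockdown library was left out. Its range was wider with library totals, at 1.03 times siNC for siPRMT6-1 (0.941 to 1.13) and 0.943 times for siPRMT6-2 (0.857 to 1.04). With library totals, the siPRMT6-2 intervals of SRSF2 (0.776, 0.610 to 0.986) and SRSF8 (0.651, 0.427 to 0.979) excluded 1. Without SRSF2 and SRSF8 the interval of the SRSF sum with siPRMT6-2 covered 1 (0.874, 0.735 to 1.04), and without SRSF2 alone it did not (0.838, 0.714 to 0.981). Leaving out SRSF8, SRSF2 with SRSF8, or the read-through gene, and refitting without genes with opposite-strand exons, were chosen after seeing the data. No paired analysis was possible because siNC has 1 library. Most genes here have under 100 counts, and changes smaller than their intervals were not detectable at this depth.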
